A study of Rattus norvegicus with 12 samples.

Results

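The comparison described here sets chondrocytes from injured rat knees injected with liposomes carrying CGS21680 (Lipo-CGS, 3 libraries) against chondrocytes from injured knees injected with saline (Saline, 3 libraries). These are 6 of the 12 libraries of the study, taken by their labels, and all 11373 expressed genes were compared, with and without the third Saline library (Saline 3). The other 6 libraries came from injured knees given empty liposomes (Lipo, 3 libraries) and from uninvolved knees (3 libraries). All animals were male Sprague Dawley rats. In the 3 injected groups the anterior cruciate ligament had been ruptured by compression of the tibia, and the joint injections began only after osteoarthritis (OA) was established. CGS21680 is an agonist selective for A2AR, the adenosine receptor encoded by Adora2a, and the liposomes were made of phosphatidylcholine and cholesterol. Each library held RNA pooled from 3 animals, taken from cells that were released from cartilage by enzymes, put in culture and trypsinized, so the values are those of cultured chondrocytes and not of cartilage in place. The rats per group given in the study's methods are fewer than separate pools for every library would need, so libraries of 1 group may share animals. The p-values below rest on the spread of libraries within groups, estimated over all groups in the fit and shared in part across genes. It is a spread between pools and not between single animals.

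Chondrocytes are the cells of cartilage and lay down its matrix of type II collagen, aggrecan and smaller glycoproteins. In healthy joints they hardly divide, and in OA they take up division, form matrix-degrading enzymes and inflammatory mediators and lose part of their matrix production. A2AR is coupled to the stimulatory G protein and raises cyclic AMP, which acts through protein kinase A and the transcription factor CREB. Lipo-CGS and Saline knees differ in both the liposome and the agonist, whose parts in any difference cannot be told apart here, and the tests of Lipo-CGS against Lipo are given at the end.

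Levels are FPKM as deposited, that is, fragments scaled to transcript length and library size. Fold changes are log2 differences of group means of log2(FPKM + 0.5), Lipo-CGS minus Saline, given ± SE, and this scale understates the change of low genes. A gene is said to rise or fall where its limma p, adjusted over all genes tested, was under 0.05, and is called changed where the fold change was also over 1.5.

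Saline 3 stood apart from the other Saline libraries. Its mean Euclidean distance over all genes tested was 43.4 to the other Saline libraries, which lay 28.6 from each other, and 71.8 to the Lipo-CGS libraries, whose mean distances among themselves were 26.1 to 28.5. Saline 1 and 2 lay 58.4 and 57.1 from Lipo-CGS, and closer, 32.7 and 34.4, to the uninvolved knees. In Saline 3, 158 genes were over 2-fold above both other Saline libraries and 26 were over 2-fold below both, a sum of 184, whereas the same count was 7 to 55 in each of the other 5 libraries. Relative depth, estimated from the smallest FPKM steps of 48 low genes, was 1.01, 1.07 and 1.1 in Lipo-CGS and 1, 0.808 and 1.06 in Saline, and the absolute depth of the libraries is unknown. The chondrocyte label fitted the markers: Col2a1 was 13372, 9092 and 10454 FPKM in Lipo-CGS and 6259, 7887 and 4132 FPKM in Saline. The summed FPKM of 10 chondrocyte markers, most of it Col2a1, was 12039 to 17652 in Lipo-CGS and 5920 to 10802 in Saline. Hapln1 overlapped, at 284, 306 and 309 FPKM in Lipo-CGS and 246, 322 and 150 FPKM in Saline. Prg4 also overlapped, at 478, 236 and 436 FPKM in Lipo-CGS and 489, 698 and 451 FPKM in Saline. Of 18 leukocyte markers 11 were listed at 0 in each Lipo-CGS library and 9, 10 and 5 in Saline 1, 2 and 3. The pan-leukocyte gene Ptprc was listed at 0 in all but Saline 3 (0.09 FPKM), but the myeloid genes Lyz2 and Tyrobp were 10.3 and 2.90 FPKM in Saline 3, against at most 0.58 and 0.13 FPKM in the other 5 libraries. The 8 endothelial markers summed to at most 0.49 FPKM and the 3 erythroid markers were all listed at 0. In bulk libraries such as these, fewer cells of a type and less RNA per cell cannot be told apart.

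Large parts of the transcriptome differed between Lipo-CGS and Saline. With all libraries, 936 genes were called higher in Lipo-CGS (8.23% of those tested) and 1174 lower (10.3%), and by the adjusted p alone 2039 rose (17.9%) and 2454 fell (21.6%). Without Saline 3, 811 genes were called higher (7.13%) and 1055 lower (9.28%), and 1443 rose (12.7%) and 1944 fell (17.1%) by the adjusted p alone. Both fits called 705 genes higher and 979 lower, and no gene was called in opposite directions. A further 231 genes were called higher and 195 lower only when Saline 3 was included. Saline 3 lay below both other Saline libraries in 174 of these higher genes and above both in 160 of these lower genes. The 106 higher and 76 lower genes called only without it included 103 and 68 in which Saline 3 lay on the Lipo-CGS side of both other Saline libraries. The median log2 fold change of all genes was 0.005 with and -0.0001 without Saline 3. Levels did not overlap between the 3 Lipo-CGS and 3 Saline libraries in 6598 genes (58% of those tested), 3170 of them higher in Lipo-CGS and 3428 lower. Changes over 4-fold were called in 15 higher and 29 lower genes, but in 14 higher and 14 lower genes without Saline 3.

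**Figure D1:**
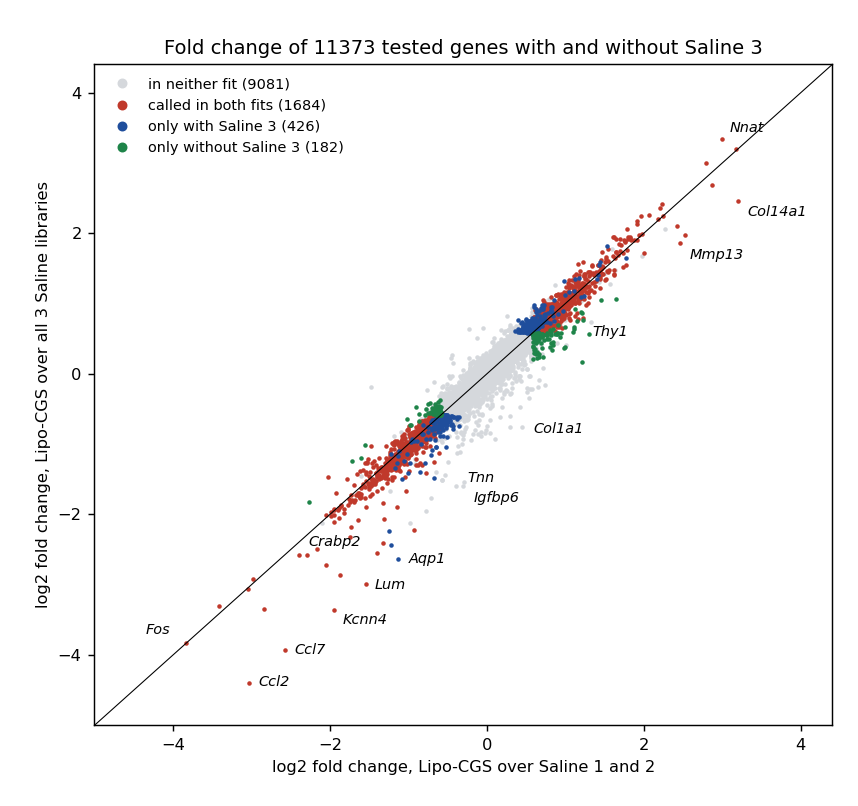
Log2 fold change of Lipo-CGS over all 3 Saline libraries (vertical axis) against that over Saline 1 and 2 (horizontal axis), with 1 point per tested gene, colored by the fit that called it, and a line of equality. Most of the 1684 genes called in both fits lie near the line, whereas Ccl2, Ccl7, Lum, Kcnn4 and Aqp1 lie below it, and in each of them Saline 3 was the highest Saline library.

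The first set of genes that fell were immediate early genes, transcription factors and regulators that growth factors, stress or cyclic AMP induce within minutes. Of 26 tested, 21 fell and 1 rose, with a median log2 fold change of -1.19, against 21.6% of all genes that fell. Without Saline 3, 20 fell and the median was -1.19. Fos, a subunit of the AP-1 factor, was 6.66, 6.11 and 6 FPKM in Lipo-CGS and 99.3, 92.5 and 94.1 FPKM in Saline. Every Saline library lay far above every Lipo-CGS library, with little spread inside either group (log2 fold change -3.83 ± 0.14, adjusted p = 8.19e-08). Egr1, a zinc finger factor, was 14.3, 19.2 and 14.3 FPKM in Lipo-CGS and 132, 135 and 138 FPKM in Saline, and the groups were again tightly separated (log2 fold change -3.06 ± 0.15, adjusted p = 4.69e-07). Ier2, a nuclear regulator of transcription, was 24.3, 26 and 25.2 FPKM in Lipo-CGS and 108, 103 and 98.6 FPKM in Saline (log2 fold change -2.01 ± 0.09, adjusted p = 4.69e-07). Klf4, a Krüppel-like factor, was 21.1, 21.8 and 19.4 FPKM in Lipo-CGS and 53, 53.4 and 51.5 FPKM in Saline, with little spread in either group (log2 fold change -1.32 ± 0.08, adjusted p = 4.41e-06). Nr4a1, an orphan nuclear receptor, was 6.73, 5.65 and 6.76 FPKM in Lipo-CGS and 61.4, 47 and 47.1 FPKM in Saline, and its groups did not overlap (log2 fold change -2.92 ± 0.21, adjusted p = 1.64e-05). The AP-1 subunits Fosb and Fosl1 fell to 1.04 and 9.04 FPKM on average in Lipo-CGS, against 8.94 and 57.8 FPKM in Saline, where both were highest in Saline 3. Junb, another AP-1 subunit, was 61.4, 39.6 and 57 FPKM in Lipo-CGS and 188, 217 and 192 FPKM in Saline, and no library crossed over (log2 fold change -1.93 ± 0.18, adjusted p = 0.00015). Btg2, an antiproliferative gene, and Dusp1, a phosphatase that inactivates MAP kinases, fell by 1.04 and 0.84 on the log2 scale (adjusted p = 0.000356 and 0.000581). The exception was Fosl2, also of AP-1, which is named after its values were seen. It was 27.5, 18 and 21.7 FPKM in Lipo-CGS and 13.1, 12.3 and 16.7 FPKM in Saline, with Lipo-CGS 2 and Saline 3 close to each other (log2 fold change 0.64 ± 0.18, adjusted p = 0.0168). Its adjusted p was 0.0528 to 0.0704 when Lipo-CGS 1, Saline 1 or Saline 2 was left out. Hes1, the repressor induced by Notch, was 7.69, 7.33 and 6.33 FPKM in Lipo-CGS and 85.9, 74.6 and 63.4 FPKM in Saline, a fall in every library (log2 fold change -3.30 ± 0.22, adjusted p = 1.18e-05).

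Promoters of these genes were searched for the letters of known response elements. The list is made of genes that growth factors, stress or cyclic AMP induce, so its share of such elements cannot speak to the fall seen here. Over the 250 bases before each RefSeq gene start (GRCr8), the cyclic AMP response element TGACGTCA, which reads the same on both strands, was found in 5 of 20 immediate early genes with a window, namely Btg2, Dusp1, Ier2, Jund and Maff, against 1.72% of 24206 windows of all genes. It was found in 3.03% of windows of genes tested, 4.69% of windows of genes called lower and 2.96% of genes called higher. The CArG box, the site of serum response factor, was found in 4 of the same 20 windows and in 1.51% of all windows and 1.1% of those of genes tested. Its share was 1.48% both in genes called lower and in genes called higher. The 150 bases before the start are printed for 2 of the genes with TGACGTCA, in capitals, at positions -66 to -59 of Ier2 (chr19:40399223-40399372, plus strand) and -124 to -117 of Dusp1 (chr10:17184703-17184852, plus strand), counted from the base before the start as -1. A match of letters is a description and does not show that a factor binds there.
Ier2: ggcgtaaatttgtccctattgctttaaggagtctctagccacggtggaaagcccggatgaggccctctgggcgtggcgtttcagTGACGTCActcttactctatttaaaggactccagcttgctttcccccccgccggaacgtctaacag
Dusp1: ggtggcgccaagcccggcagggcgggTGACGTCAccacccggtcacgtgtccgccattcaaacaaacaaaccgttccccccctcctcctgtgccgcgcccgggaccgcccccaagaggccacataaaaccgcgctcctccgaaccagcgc

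Genes of the cell division cycle fell together. All 28 tested DNA replication genes fell, with a median log2 fold change of -1.27, and all 26 tested mitosis genes fell, with a median of -1.20. Without Saline 3, 27 and 24 fell, with medians of -1.19 and -1.11, against 17.1% of all genes. Pcna, the sliding clamp of DNA polymerase, was 79.3, 109 and 88.6 FPKM in Lipo-CGS and 266, 281 and 286 FPKM in Saline. The lowest Saline library was more than 2-fold above the highest Lipo-CGS library (log2 fold change -1.60 ± 0.17, adjusted p = 0.000317). The helicase subunits Mcm3 and Mcm7 averaged 17.4 and 26.1 FPKM in Lipo-CGS and 51.8 and 70.9 FPKM in Saline (log2 fold change -1.56 ± 0.19, adjusted p = 0.000402 for Mcm3). Cdt1, which loads that helicase on origins, fell by 1.59 on the log2 scale (adjusted p = 0.000385). Cdk1, the kinase that starts mitosis, was 48, 59.5 and 42.9 FPKM in Lipo-CGS and 141, 153 and 166 FPKM in Saline (log2 fold change -1.61 ± 0.23, adjusted p = 0.000679). Lipo-CGS 2 was the highest of its group for Cdk1 and for Pcna, yet below all Saline libraries. Top2a, the topoisomerase of dividing cells, was 20, 25.2 and 19.8 FPKM in Lipo-CGS and 46.3, 51.6 and 53.7 FPKM in Saline (log2 fold change -1.21 ± 0.18, adjusted p = 0.000899). The ubiquitin-conjugating enzyme Ube2c and the spindle protein Nusap1 fell by 1.83 and 1.37 on the log2 scale (adjusted p = 0.00073 and 0.000469). Ccnd1, the cyclin of early G1, was 31.8, 53.5 and 34.6 FPKM in Lipo-CGS and 123, 108 and 180.1 FPKM in Saline, with every Lipo-CGS library below every Saline library and the highest value in Saline 3 (log2 fold change -1.77 ± 0.26, adjusted p = 0.000748).

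Of 12 tested CDK inhibitors and p53 targets 2 rose and 2 fell, shares near the 17.9% and 21.6% of all genes. Without Saline 3, 2 rose and 1 fell, against 12.7% and 17.1%. Cdkn1c, which encodes the inhibitor p57, was 36.2, 37.1 and 53.7 FPKM in Lipo-CGS and 6.61, 10.8 and 5.59 FPKM in Saline. It was 1 of the 15 genes over 4-fold higher, with no overlap between groups (log2 fold change 2.42 ± 0.44, adjusted p = 0.00217). Cdkn2c, which encodes the inhibitor p18, instead fell, with 18.1, 18.1 and 17.5 FPKM in Lipo-CGS and 38.8, 43.2 and 40.4 FPKM in Saline (log2 fold change -1.16 ± 0.17, adjusted p = 0.000723). Cdkn2a, the locus of p16 and of ARF, was 3.62, 3.45 and 3.44 FPKM in Lipo-CGS and 5.83, 5.87 and 10.8 FPKM in Saline, and its fall (log2 fold change -0.94 ± 0.28, adjusted p = 0.0219) rested on Saline 3, without which it was -0.67 (adjusted p = 0.0833). The adjusted p of Cdkn2a was also over the threshold, at 0.0519 to 0.0573, when any 1 Lipo-CGS library was left out. Sesn1, a stress-induced p53 target, rose by 0.74 on the log2 scale (adjusted p = 0.0055).

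The promoters of 2 of the cell cycle genes are shown for the letters of the cell cycle genes homology region, TTTGAA, and the CCAAT box, each searched on both strands in the 250 bases before the start. TTTGAA was found in 8 of 21 mitosis genes with a window and 1 of 22 replication genes, against 16.1% of all windows, 10.1% of those of genes tested, 16.7% of those of genes called lower and 10.2% of those of genes called higher. CCAAT was found in 15 and 12 of the same windows and in 34.4% of all windows and 36.3% of those of genes tested. The 150 bases before the start of Cdk1 (chr20:19265143-19265292, plus strand) and Top2a (chr10:84473094-84473243, minus strand) carry both motifs, in capitals, read as TTTGAA or TTCAAA and as CCAAT or ATTGG by strand.
Cdk1: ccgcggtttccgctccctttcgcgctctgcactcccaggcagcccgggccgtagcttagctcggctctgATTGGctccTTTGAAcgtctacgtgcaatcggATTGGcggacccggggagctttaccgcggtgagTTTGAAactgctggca
Top2a: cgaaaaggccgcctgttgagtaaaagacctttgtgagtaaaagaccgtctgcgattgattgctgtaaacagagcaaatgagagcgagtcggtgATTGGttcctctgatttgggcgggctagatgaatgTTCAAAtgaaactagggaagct

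**Figure D2:**
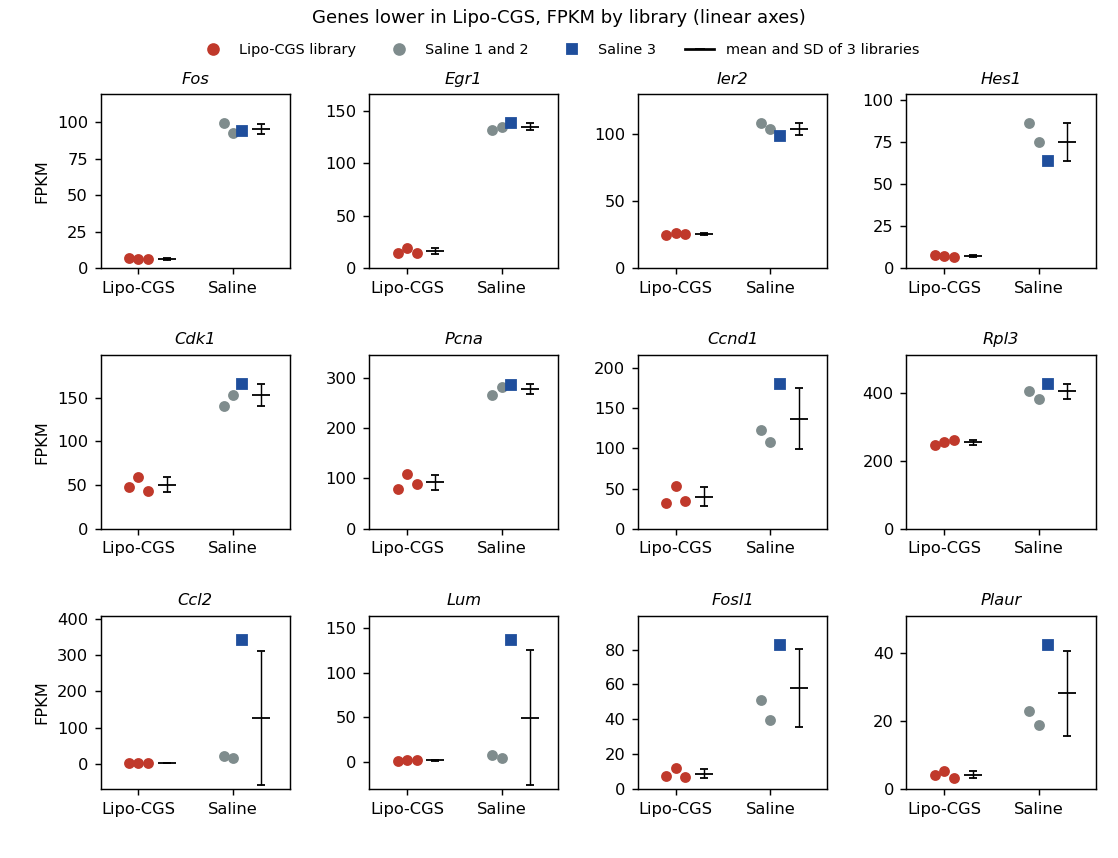
FPKM of 12 genes lower in Lipo-CGS, by library on linear axes that differ between panels, with Lipo-CGS libraries in red, Saline 1 and 2 as gray circles and Saline 3 as a blue square, and the mean and SD of 3 libraries in black. Fos was 6 to 6.66 FPKM in Lipo-CGS and 92.5 to 99.3 FPKM in Saline, and the groups are narrow and apart, whereas the Saline means of Ccl2 and Lum are set by Saline 3 (341 and 136 FPKM).

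Genes for making and clearing proteins were also lower in Lipo-CGS. Of 67 tested cytosolic ribosomal protein genes 54 fell and none rose, with a median log2 fold change of -0.75. For this list and those that follow, the share of all genes that fell was 21.6% with all libraries and 17.1% without Saline 3. Rpl3 of the large subunit was 245, 255 and 261 FPKM in Lipo-CGS and 405, 382 and 425 FPKM in Saline (log2 fold change -0.67 ± 0.10, adjusted p = 0.000778). Rpl11, also of the large subunit, fell by 0.82 on the log2 scale (adjusted p = 0.00125). Reads of ribosomal protein genes can be shared with their many processed pseudogenes, so single values are uncertain. Rps25 showed how 1 library can decide a value, with 4.37, 4.76 and 3.56 FPKM in Lipo-CGS and 74.3, 6.39 and 8.54 FPKM in Saline. Its adjusted p was 0.0522 with all libraries, 0.0401 without Saline 3 and 0.0184 without Saline 2, whereas its log2 fold change was only -0.75 (adjusted p = 0.0841) without Saline 1. Of 29 ribosome biogenesis genes 21 fell and none rose (median -0.38), among them the nucleolar genes Ncl, Fbl and Nop56, at -0.67, -0.84 and -0.60 on the log2 scale. Nop56 fell short of the 1.5-fold threshold without Lipo-CGS 3 (-0.56) or Saline 1 (-0.56). Of 31 proteasome subunit genes 30 fell (median -0.51), and 27 fell without Saline 3. Psmc3, an ATPase of the proteasome cap, was 169.6, 167 and 150.2 FPKM in Lipo-CGS and 262, 249 and 270.1 FPKM in Saline, and Psma7, of its core, was 162, 148 and 160.3 FPKM in Lipo-CGS and 276, 254 and 258 FPKM in Saline. Both groups were tight and apart for both genes (adjusted p = 0.00113 and 0.00188). Nuclear genes of the respiratory chain fell in 18 of 27 (median -0.38), for example Cyc1, Uqcrfs1 and Atp5b, at -0.59, -0.61 and -0.49 on the log2 scale. Cyc1 and Uqcrfs1 fell short of the 1.5-fold threshold without Saline 1 (-0.55 and -0.57) or Saline 3 (-0.58 and -0.58), and Uqcrfs1 also without Lipo-CGS 1 (-0.55). The count for the list was 13 without Saline 3, against 17.1% of all genes. It was 9, 10 and 9 without Lipo-CGS 1, Lipo-CGS 2 or Saline 1. None of 11 mitochondrially encoded mRNAs passed the test in either direction (median 0.21, median 0.17 without Saline 3).

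**Figure D3:**
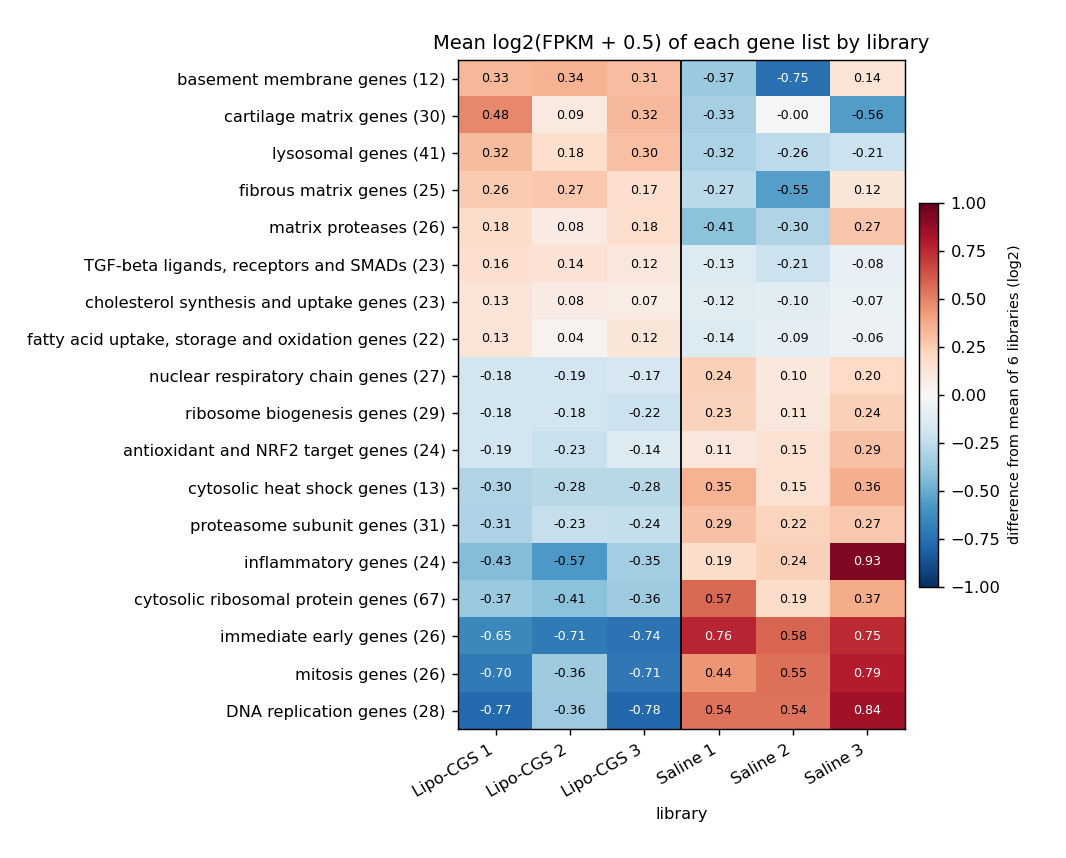
Mean log2(FPKM + 0.5) of 18 gene lists in each of the 6 libraries, as the difference from the mean of the 6 libraries (red above, blue below), with the number of tested genes in brackets. Lists in the lower part are below the mean in all 3 Lipo-CGS libraries and above it in all 3 Saline libraries, and Saline 3 lies far from Saline 1 and 2 for inflammatory genes (0.93, against 0.19 and 0.24) and above all Lipo-CGS libraries for matrix proteases (0.27, against 0.08 to 0.18).

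Stress and redox genes followed in part. Of 13 cytosolic heat shock genes 8 fell and none rose, and Hsp90ab1, the constitutive HSP90, was 306, 319 and 309 FPKM in Lipo-CGS and 419, 426 and 453 FPKM in Saline (log2 fold change -0.47 ± 0.09, adjusted p = 0.00224). Of 24 antioxidant genes 10 fell, such as Gsr, which reduces glutathione, and thioredoxin, Txn1, at -0.76 and -0.95 on the log2 scale. The only one that rose was the peroxidase Prdx6, at 0.33 (adjusted p = 0.0207), which is named after its values were seen and had an adjusted p of 0.0774 without Saline 3. Of 14 ATF4 target and amino acid synthesis genes 6 fell and none rose. Phgdh, the entry enzyme of serine synthesis, was 40.2, 40.6 and 40.6 FPKM in Lipo-CGS and 71.5, 72.6 and 67.9 FPKM in Saline (log2 fold change -0.80 ± 0.09, adjusted p = 0.000317), and Chac1, which degrades glutathione, was 11.5, 11.5 and 12.5 FPKM in Lipo-CGS and 26.9, 30.2 and 24.4 FPKM in Saline (log2 fold change -1.16 ± 0.10, adjusted p = 6.72e-05). Mthfd2, of mitochondrial folate metabolism, fell by 0.68 on the log2 scale (adjusted p = 0.000351). Genes of the unfolded protein response had a median of -0.0012. Of 24, 6 rose and 2 fell with all libraries, and 3 rose and 2 fell without Saline 3, against 17.9% and 21.6%, and 12.7% and 17.1%, of all genes.

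Among inflammatory genes more fell than rose, and the count depended on Saline 3. Of 24 tested, 11 fell and 1 rose (median -0.55), but 6 fell and 2 rose without Saline 3 (median -0.48). Of all genes, 21.6% fell with all libraries and 17.1% without Saline 3. Ccl2, which attracts monocytes, was 1.7, 1.65 and 2.58 FPKM in Lipo-CGS and 22.4, 16.9 and 341 FPKM in Saline. All Saline libraries lay above all Lipo-CGS libraries, and Saline 3 was 17.4-fold above the mean of Saline 1 and 2. On the log2 scale it fell by 4.39 ± 0.89 (adjusted p = 0.00343), and the difference was -3.03 (adjusted p = 0.00237) without Saline 3 and -5.18 without Saline 2. Ccl7, its neighbour in function, was 0.55, 0.34 and 0.6 FPKM in Lipo-CGS and 6.79, 4.23 and 99 FPKM in Saline, the same order of libraries (log2 fold change -3.93 ± 0.92, adjusted p = 0.00693; -2.57 without Saline 3 and -4.77 without Saline 2). Other mediators fell without leaning on Saline 3. Cxcl10, a chemokine of T cells, was 0.82, 1.24 and 1.1 FPKM in Lipo-CGS and 5.09, 4.43 and 6.01 FPKM in Saline (log2 fold change -1.87 ± 0.23, adjusted p = 0.000433). Lif, a cytokine of the interleukin 6 family, was 0.9, 1.52 and 1.03 FPKM in Lipo-CGS and 5.91, 4.01 and 5.77 FPKM in Saline (log2 fold change -1.80 ± 0.23, adjusted p = 0.00046). The neutrophil chemokine Cxcl2 and the prostaglandin synthase Ptgs2 averaged 0.79 and 0.923 FPKM in Lipo-CGS and 3.24 and 3.57 FPKM in Saline (adjusted p = 0.00119 and 0.00244). Icam1, an adhesion molecule for leukocytes, named after its values were seen, went the other way, at 216, 172 and 220.1 FPKM in Lipo-CGS and 99.1, 115 and 103 FPKM in Saline (log2 fold change 0.93 ± 0.21, adjusted p = 0.00524). Of 4 tested leukocyte markers 3 fell and none rose (median -0.88), and 1 fell without Saline 3 (median -0.73). Cd68, of macrophages, was 3.69, 2.55 and 2.47 FPKM in Lipo-CGS and 5.38, 5.64 and 7.81 FPKM in Saline (log2 fold change -0.99 ± 0.28, adjusted p = 0.0162; -0.84, adjusted p = 0.0602, without Saline 3, and adjusted p = 0.0526 to 0.0566 without Lipo-CGS 2 or 3), and Cd79a, of B cells, was 0.4, 0.4 and 0.39 FPKM in Lipo-CGS and 1.94, 1.98 and 1.35 FPKM in Saline (log2 fold change -1.32 ± 0.19, adjusted p = 0.000723). The summed FPKM of the 18 leukocyte markers was 27.2 to 37.2 in Lipo-CGS and 48 to 59.9 in Saline. Most of each sum was 1 gene, Cd14, at 32.2, 23.4 and 30.9 FPKM in Lipo-CGS and 38.5, 41.7 and 34.4 FPKM in Saline. The leukocyte genes Ptprc, Cd3e, Aif1 and C1qa were at most 0.09 FPKM in every library. Among the libraries compared, the myeloid genes Lyz2 and Tyrobp were above 1 FPKM only in Saline 3. The part of leukocytes in the inflammatory genes was not tested.

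Genes of the cartilage matrix were higher in Lipo-CGS. Of 30 tested 16 rose and 2 fell, with a median of 0.75, against 17.9% of all genes that rose. The count of rises was 10 without Saline 3 (median 0.57), against 12.7% of all genes, and also 10 without Lipo-CGS 1, Lipo-CGS 3 or Saline 1. Comp, the cartilage oligomeric matrix protein, was 907, 514 and 771 FPKM in Lipo-CGS and 183, 242 and 159.7 FPKM in Saline, with no overlap (log2 fold change 1.89 ± 0.27, adjusted p = 0.00073). Col9a1, a chain of the collagen that coats type II fibrils, was 85.6, 67.5 and 65.7 FPKM in Lipo-CGS and 19.2, 26.9 and 12.8 FPKM in Saline (log2 fold change 1.92 ± 0.35, adjusted p = 0.00206). Cnmd, the cartilage glycoprotein chondromodulin, was 13.9, 7.17 and 7.02 FPKM in Lipo-CGS and 1.58, 1.93 and 0.99 FPKM in Saline, highest in Lipo-CGS 1 (log2 fold change 2.26 ± 0.39, adjusted p = 0.00166). Col2a1, the type II collagen chain whose values are given above, rose by 0.88 ± 0.29 on the log2 scale (adjusted p = 0.0324), and Acan, the aggrecan core protein, was 1763, 1159 and 1491 FPKM in Lipo-CGS and 954, 1149 and 681 FPKM in Saline (log2 fold change 0.68 ± 0.25, adjusted p = 0.0496). The groups did not overlap for either, but Acan was nearly equal in Lipo-CGS 2 and Saline 2, and without Saline 3 they were 0.62 (adjusted p = 0.128) and 0.47 (adjusted p = 0.181). Neither passed the test without Lipo-CGS 1, Lipo-CGS 3 or Saline 1 (adjusted p = 0.0628 to 0.164). Col11a1, which nucleates these fibrils, was 644, 563 and 549 FPKM in Lipo-CGS and 398, 385 and 283 FPKM in Saline (log2 fold change 0.73 ± 0.18, adjusted p = 0.0078), and 0.58 without Saline 3, under the fold threshold. Sox9, the transcription factor that directs the chondrocyte program, is also named after its values were seen. It was 46.7, 44.4 and 45.4 FPKM in Lipo-CGS and 49.5, 54.7 and 31.2 FPKM in Saline, with all Lipo-CGS values inside the Saline range, and it did not pass the test (log2 fold change 0.05 ± 0.19, adjusted p = 0.847; -0.19, adjusted p = 0.344, without Saline 3). The cartilage proteins Matn2 and Cilp2 rose by 1.10 and 1.02 on the log2 scale (adjusted p = 0.00132 and 0.00178).

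Lum and Chad were the 2 genes of that list that fell. Lum, the proteoglycan lumican, was 1.07, 2.44 and 2.21 FPKM in Lipo-CGS and 7.78, 5.03 and 136 FPKM in Saline, and Saline 3 was 21.3-fold above the mean of the other Saline libraries. On the log2 scale it fell by 2.99 ± 0.92 (adjusted p = 0.0235), against -1.54 (adjusted p = 0.0177) without Saline 3 and -3.86 without Saline 2. Its adjusted p was 0.0767 without Lipo-CGS 1 and 0.0513 without Lipo-CGS 3. Chad, the cartilage adhesion protein chondroadherin, named after its values were seen, was 22.8, 13.8 and 18.5 FPKM in Lipo-CGS and 32.3, 55.1 and 26.4 FPKM in Saline (log2 fold change -0.98 ± 0.31, adjusted p = 0.0282), and it did not pass the test without Lipo-CGS 2, Lipo-CGS 3 or Saline 2 (adjusted p = 0.0628 to 0.102).

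Fibrous matrix and basement membrane genes rose too, and were also higher in Lipo against Saline, with medians of 1.02 and 0.94. Of 25 fibrous matrix genes 12 rose and none fell (median 0.46), and the counts were the same without Saline 3. Of all genes, 17.9% rose with all libraries and 12.7% without Saline 3. Col12a1, a collagen found on the surface of type I fibrils, was 100.5, 74.7 and 89.3 FPKM in Lipo-CGS and 23.6, 13.7 and 18.4 FPKM in Saline, and every Lipo-CGS library lay over 3-fold above every Saline library (log2 fold change 2.24 ± 0.26, adjusted p = 0.000336). Col14a1, a related collagen, was 15.7, 16.3 and 17.1 FPKM in Lipo-CGS and 1.82, 0.94 and 8.18 FPKM in Saline, with Saline 3 between the other Saline libraries and Lipo-CGS (log2 fold change 2.45 ± 0.50, adjusted p = 0.00343; 3.20 without Saline 3). Fbln5, which organizes elastic fibers, was 46.3, 31.9 and 44.2 FPKM in Lipo-CGS and 8.39, 8.61 and 8.07 FPKM in Saline (log2 fold change 2.20 ± 0.24, adjusted p = 0.000317). Thbs2, a matricellular thrombospondin, and Fn1, fibronectin, rose by 1.37 and 0.91 on the log2 scale. Fn1 was among the most abundant mRNAs, with 12274, 11064 and 9979 FPKM in Lipo-CGS and 5874, 6365 and 5430.2 FPKM in Saline. Col3a1 and Col1a1, of interstitial fibrils, were tied to Saline 3. Col3a1 was 497, 538 and 484 FPKM in Lipo-CGS and 343, 257 and 463 FPKM in Saline, under the fold threshold with all libraries (log2 fold change 0.56 ± 0.17, adjusted p = 0.025) and called without Saline 3 (0.77, adjusted p = 0.00458). Col1a1 was 87.9, 84 and 83 FPKM in Lipo-CGS and 107, 35.8 and 771 FPKM in Saline, and its log2 fold change was -0.76 (adjusted p = 0.529) with Saline 3 and 0.45 (adjusted p = 0.633) without it. Of 12 basement membrane genes 9 rose and none fell in both fits (median 0.89). The laminin chain Lamb2 was 135, 119.7 and 121 FPKM in Lipo-CGS and 61.7, 58.6 and 67.2 FPKM in Saline, a close grouping (log2 fold change 1.00 ± 0.10, adjusted p = 0.000259). Lama4, another laminin chain, and Col4a5, a chain of type IV collagen, rose by 1.06 and 1.44. Nid1, which links laminin to type IV collagen, was 11.1, 17 and 15.1 FPKM in Lipo-CGS and 2.53, 1.64 and 7.62 FPKM in Saline (log2 fold change 1.97 ± 0.40, adjusted p = 0.00346).

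**Figure D4:**
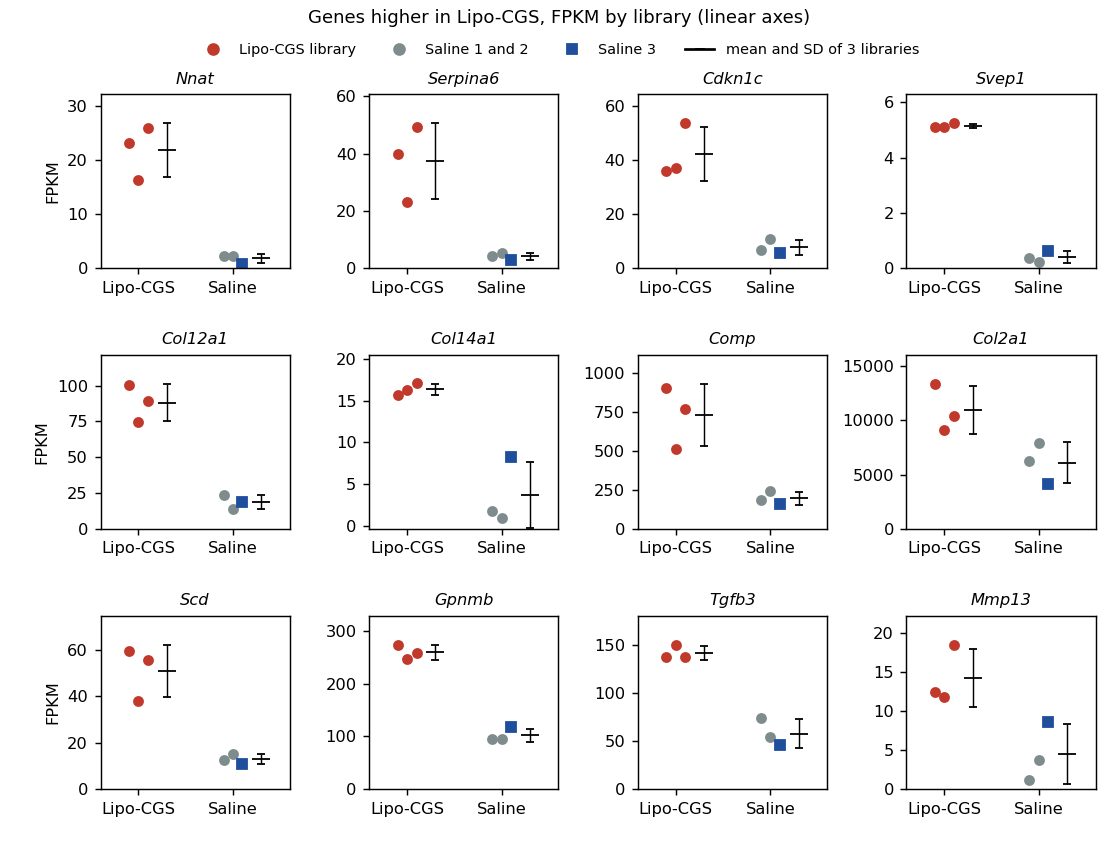
FPKM of 12 genes higher in Lipo-CGS, by library on linear axes that differ between panels, with Lipo-CGS libraries in red, Saline 1 and 2 as gray circles and Saline 3 as a blue square, and the mean and SD of 3 libraries in black. All 3 Lipo-CGS libraries lie above all 3 Saline libraries in every panel, and for Col14a1 and Mmp13 Saline 3 (8.18 and 8.7 FPKM) lies nearest to Lipo-CGS.

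Among enzymes that degrade matrix more rose than fell. Of 26 tested proteases 11 rose and 4 fell, against 17.9% and 21.6% of all genes. Without Saline 3, 11 rose and 2 fell, against 12.7% and 17.1%. The count of rises was 7 without any 1 of the other 5 libraries. Averaged over the list, Saline 3 lay above all Lipo-CGS libraries, and Saline 1 and 2 below them. Mmp3, or stromelysin-1, was 356, 219.6 and 283 FPKM in Lipo-CGS and 599, 704 and 633 FPKM in Saline, and Mmp10, or stromelysin-2, was 34.8, 22.1 and 26.5 FPKM in Lipo-CGS and 47.1, 54.3 and 55.5 FPKM in Saline. Both fell, with no overlap (-1.20 and -0.92, adjusted p = 0.0006 and 0.00286). Mmp13, the collagenase that cleaves type II collagen, rose, with 12.4, 11.9 and 18.6 FPKM in Lipo-CGS and 1.15, 3.71 and 8.7 FPKM in Saline. Saline 3 was its highest Saline library, and the rise was 1.86 ± 0.45 on the log2 scale (adjusted p = 0.00819), 2.46 without Saline 3 and 1.22 without Saline 1. Adamts5, an aggrecanase, was 18.9, 21.6 and 23.3 FPKM in Lipo-CGS and 7.55, 8.63 and 8.9 FPKM in Saline, over 2-fold apart in every library (log2 fold change 1.30 ± 0.19, adjusted p = 0.00073). The procollagen proteinases Adamts2 and Adamts14 rose by 1.00 and 0.75 on the log2 scale (adjusted p = 0.00656 and 0.00384). The inhibitors of proteases were divided. Reck, which restrains MMPs at the cell surface, was 379, 316 and 372 FPKM in Lipo-CGS and 110.1, 138 and 90.6 FPKM in Saline (log2 fold change 1.67 ± 0.26, adjusted p = 0.00108), and Timp2 rose by 0.73. Timp1 fell by 0.81, and Serpine2, an inhibitor of thrombin and plasminogen activators, was 937, 869 and 983 FPKM in Lipo-CGS and 1916, 2109.7 and 1968 FPKM in Saline (log2 fold change -1.10 ± 0.12, adjusted p = 0.000317). Plaur, the urokinase receptor, was 4.26, 5.37 and 3.38 FPKM in Lipo-CGS and 22.9, 18.9 and 42.4 FPKM in Saline, highest in Saline 3 (log2 fold change -2.50 ± 0.30, adjusted p = 0.000392).

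Among genes of hypertrophy and mineral, which late chondrocytes share with bone cells, more fell than rose. Of 13 tested 5 fell and 2 rose, against 21.6% and 17.9% of all genes. Without Saline 3, 5 fell and 1 rose, against 17.1% and 12.7%. That 1 gene was Mmp13, whose values are given above and which also rose with all libraries. Phospho1, a phosphatase that starts mineral formation, was 6.05, 4.92 and 5.35 FPKM in Lipo-CGS and 14, 16.3 and 26.4 FPKM in Saline (log2 fold change -1.66 ± 0.20, adjusted p = 0.000392). Spp1, osteopontin, was 337, 353 and 372 FPKM in Lipo-CGS and 738, 995 and 1531 FPKM in Saline, with Saline 3 highest (log2 fold change -1.55 ± 0.33, adjusted p = 0.00425). Ibsp, the bone sialoprotein, was 28.6, 20.7 and 25 FPKM in Lipo-CGS and 45.8, 103 and 45.8 FPKM in Saline, with Saline 2 highest (log2 fold change -1.27 ± 0.35, adjusted p = 0.0141). Ibsp is also an osteoblast marker, and the other 5 osteoblast markers were each at most 0.58 FPKM in all 6 libraries.

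Lysosomal and lipid genes were among those that rose. Of 41 lysosomal genes 29 rose and 1 fell (median 0.53), and 27 rose without Saline 3. Of all genes, 17.9% rose with all libraries and 12.7% without Saline 3. Gla, which cleaves terminal galactose from lipids, was 16.8, 17.3 and 15.2 FPKM in Lipo-CGS and 7.83, 8.6 and 7.35 FPKM in Saline, and Gaa, which degrades glycogen, was 136, 116 and 116 FPKM in Lipo-CGS and 57.4, 59.2 and 57.1 FPKM in Saline. Both were about 2-fold higher with tight groups (1.01 and 1.08, adjusted p = 0.000347 and 0.000402). Gpnmb, a glycoprotein of lysosomes and melanosomes, was 274, 246 and 258 FPKM in Lipo-CGS and 95.3, 94.6 and 117 FPKM in Saline (log2 fold change 1.34 ± 0.18, adjusted p = 0.000525). The protease Ctsf and the cholesterol exporter Npc1 rose by 1.03 and 0.75. The gene that fell, Tfeb, encodes a master regulator of lysosomal genes and is named after its values were seen, with 9.91, 8.93 and 10 FPKM in Lipo-CGS and 14.5, 16.6 and 15.2 FPKM in Saline (log2 fold change -0.65 ± 0.11, adjusted p = 0.00124). Scd, the desaturase that makes monounsaturated fatty acids, was 59.3, 38 and 55.4 FPKM in Lipo-CGS and 12.8, 15.3 and 10.9 FPKM in Saline (log2 fold change 1.91 ± 0.22, adjusted p = 0.000333), and its relative Scd2 rose by 1.08. Fabp5, a carrier of fatty acids, instead was 226, 224 and 254 FPKM in Lipo-CGS and 663, 625 and 737 FPKM in Saline (log2 fold change -1.52 ± 0.18, adjusted p = 0.000371). Of 22 fatty acid genes 8 rose and 2 fell, against 17.9% and 21.6% of all genes. Of 23 genes of cholesterol synthesis and uptake 8 rose, led by Lss, which closes the sterol rings, with 24.9, 17.1 and 21.9 FPKM in Lipo-CGS and 10.5, 11.5 and 9.51 FPKM in Saline (log2 fold change 0.97 ± 0.13, adjusted p = 0.000578). The 1 that fell was the isomerase Ebp, named after its values were seen (-0.51, adjusted p = 0.0253), and it did not pass the test without Saline 3 (adjusted p = 0.0865). Enpp2, which makes lysophosphatidic acid, was 458, 267 and 459 FPKM in Lipo-CGS and 71.7, 143 and 63.7 FPKM in Saline (log2 fold change 2.13 ± 0.49, adjusted p = 0.00602).

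Genes of TGF-beta signalling were mostly higher where they passed the test. The study describes opposing roles of this signalling in cartilage, depending on the receptor, and changes of it in OA. It reports lower Tgfb3 mRNA in Lipo-CGS than with empty liposomes, and also a decrease of Tgfb2. The values below are against Saline, a different reference group. The median of the list was 0.22 against Saline and -0.04 in Lipo-CGS against Lipo. Of 23 ligands, receptors and SMADs 11 rose and 2 fell, against 17.9% and 21.6% of all genes. Without Saline 3, 8 rose, against 12.7% of all genes, and 7 rose without Lipo-CGS 1. Tgfb3 was 138, 150.5 and 138 FPKM in Lipo-CGS and 74.2, 54 and 45.9 FPKM in Saline and Tgfb2 was 67, 61.5 and 70.1 FPKM in Lipo-CGS and 35, 30.1 and 28.3 FPKM in Saline. Both ligands were higher in every Lipo-CGS library (log2 fold change 1.31 ± 0.15, adjusted p = 0.000317 for Tgfb3; 1.08, adjusted p = 0.000244, for Tgfb2). The receptor Tgfbr2 was 52.6, 54.4 and 47.4 FPKM in Lipo-CGS and 24.8, 22.1 and 29.4 FPKM in Saline (log2 fold change 1.01 ± 0.22, adjusted p = 0.00445), and Smad3, the signal transducer below it, rose by 0.78 (adjusted p = 0.00141). Of 23 BMP genes 7 rose and 5 fell, against 17.9% and 21.6% of all genes. Bmp4, a ligand, was 13.5, 14.4 and 18.9 FPKM in Lipo-CGS and 7.06, 6.5 and 4.97 FPKM in Saline (log2 fold change 1.27 ± 0.19, adjusted p = 0.000764), and Chrd, the antagonist chordin, rose by 1.03. Id1, a target of BMP signalling, was 214, 169.9 and 174 FPKM in Lipo-CGS and 429, 412 and 327 FPKM in Saline (log2 fold change -1.06 ± 0.20, adjusted p = 0.00251), and the ligand Gdf6 fell by 1.33. Igfbp5, which binds insulin-like growth factors, was 153, 131 and 165 FPKM in Lipo-CGS and 40.2, 48.3 and 31.9 FPKM in Saline (log2 fold change 1.90 ± 0.35, adjusted p = 0.00224), and Igf2r, which clears IGF2, rose by 0.74.

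Several genes with large rises have not been named so far. Nnat, an imprinted gene for a small endoplasmic reticulum protein, was 23.2, 16.2 and 25.9 FPKM in Lipo-CGS and 2.28, 2.21 and 0.85 FPKM in Saline (log2 fold change 3.34 ± 0.34, adjusted p = 0.000259). Serpina6, the corticosteroid carrier of blood plasma, was 39.8, 23.1 and 49.1 FPKM in Lipo-CGS and 4.21, 5.26 and 2.87 FPKM in Saline (log2 fold change 3.00 ± 0.55, adjusted p = 0.00221). Both were several fold higher in every Lipo-CGS library. Npvf, which encodes neuropeptides of the RFamide family, was 4.03, 3.81 and 4.87 FPKM in Lipo-CGS and 0.05, 0 and 0 FPKM in Saline, so its fitted value of 3.19 depends on the added 0.5 FPKM. Svep1, an adhesion protein of the extracellular matrix, was 5.11, 5.12 and 5.24 FPKM in Lipo-CGS and 0.35, 0.21 and 0.62 FPKM in Saline (log2 fold change 2.69 ± 0.27, adjusted p = 0.000259). Itm2a, a membrane protein gene of early chondrogenic cells, was 730.0, 793 and 849 FPKM in Lipo-CGS and 216, 203 and 121 FPKM in Saline (log2 fold change 2.18 ± 0.33, adjusted p = 0.000868). C1qtnf3, a secreted protein of the C1q and TNF family known from cartilage, and Anxa3, an annexin, rose by 2.36 and 2.25 (adjusted p = 0.000323 and 0.000402). Among falls, Hspb7, a small heat shock protein of muscle, was 1.5, 1.44 and 1.68 FPKM in Lipo-CGS and 21, 9.4 and 41.4 FPKM in Saline, with a wide Saline spread (log2 fold change -3.35 ± 0.52, adjusted p = 0.000999). S100a6, a calcium-binding protein of dividing cells, was 3311, 3352 and 3308 FPKM in Lipo-CGS and 7640.0, 5623 and 5426 FPKM in Saline (log2 fold change -0.89 ± 0.25, adjusted p = 0.0168). It did not pass the test without Saline 1 (-0.73, adjusted p = 0.066).

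Some falls were set in size or call by Saline 3. Kcnn4, a calcium-activated potassium channel, was 0.08, 0.2 and 0.06 FPKM in Lipo-CGS and 2.98, 1.1 and 43.3 FPKM in Saline, a log2 fold change of -3.36 with all libraries, -1.95 without Saline 3 and -4.34 without Saline 2. Crabp2, a carrier of retinoic acid, was 0.38, 0.31 and 0.37 FPKM in Lipo-CGS and 1.9, 1.62 and 23.8 FPKM in Saline (-2.55, -1.40 without Saline 3, -3.16 without Saline 2). Akr1b10, an aldo-keto reductase, was 1.1, 1.79 and 1.6 FPKM in Lipo-CGS and 8.25, 5.5 and 55 FPKM in Saline (-2.85, -1.88 without Saline 3, -3.48 without Saline 2). These 3 genes stayed called in both fits. Fam25a was 19.8, 42.8 and 13.6 FPKM in Lipo-CGS and 130.4, 69.4 and 381 FPKM in Saline (-2.71, and -2.05 without Saline 3). Aqp1, a water channel, was 3.29, 5.63 and 3.32 FPKM in Lipo-CGS and 14.7, 5.82 and 219.8 FPKM in Saline, and its call (adjusted p = 0.0454) was lost without Saline 3 (-1.13, adjusted p = 0.0641), without Saline 1 and without any 1 Lipo-CGS library (adjusted p = 0.0509 to 0.11), and its log2 fold change was -3.70 without Saline 2. Angpt4, an angiopoietin, was 0.33, 0.45 and 0.24 FPKM in Lipo-CGS and 1.51, 0.76 and 22.8 FPKM in Saline, and was called with Saline 3 (-2.22) and without it (-0.93), but had an adjusted p of 0.0836 to 0.107 without any 1 Lipo-CGS library and a log2 fold change of -3.03 without Saline 2. Igfbp6, which binds IGF2, was 2.03, 3.72 and 3.19 FPKM in Lipo-CGS and 3.97, 3.43 and 61.4 FPKM in Saline. Tnn, the matrix protein tenascin-N, was 0.41, 0.46 and 0.38 FPKM in Lipo-CGS and 0.66, 0.74 and 14.1 FPKM in Saline. Col4a1, a type IV collagen chain, was 1.42, 0.95 and 1.53 FPKM in Lipo-CGS and 2.4, 1.15 and 28.5 FPKM in Saline. In these 3 genes Saline 3 was 16.6-fold, 20.1-fold and 16-fold above the mean of Saline 1 and 2, and they passed the test neither with it (-1.60, -1.59 and -1.54, adjusted p = 0.129, 0.112 and 0.153) nor without it (-0.30, -0.39 and -0.30, adjusted p = 0.429, 0.363 and 0.63). Without Saline 2, Igfbp6 and Col4a1 did pass it, at -2.29 and -2.36 (adjusted p = 0.047 and 0.0372), and without Saline 1 the log2 fold changes of Igfbp6 and Tnn were -2.20 and -2.21. Thy1, a surface protein of fibroblasts, was 149.6, 112 and 157 FPKM in Lipo-CGS and 52.9, 64.8 and 152 FPKM in Saline, and it rose only without Saline 3 (1.23, adjusted p = 0.00147), the value with it being 0.77 (adjusted p = 0.059).

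Of 6 tested fibroblast markers 4 rose and none fell with all libraries, and 4 rose and none fell without Saline 3. Of all genes, 17.9% and 12.7% rose in the same fits. Fap, a surface protease of activated fibroblasts, was 49.8, 67.8 and 59.3 FPKM in Lipo-CGS and 17.8, 20 and 16.3 FPKM in Saline (log2 fold change 1.68 ± 0.24, adjusted p = 0.000668), and Pdgfrb, a receptor of platelet-derived growth factor, was 83.6, 86.2 and 82.4 FPKM in Lipo-CGS and 49.8, 47 and 43.6 FPKM in Saline (log2 fold change 0.84 ± 0.09, adjusted p = 0.000317). Pdgfra, the related receptor, was 43.4, 46.1 and 42.1 FPKM in Lipo-CGS and 30.4, 30 and 34.7 FPKM in Saline, with no overlap (log2 fold change 0.46 ± 0.10, adjusted p = 0.00409). The summed FPKM of 10 fibroblast markers was 320.2 to 360 in Lipo-CGS and 167 to 266 in Saline, and 1 or 2 of the 10 were listed at 0 in each library. Most of each sum was Thy1, Pdgfrb, Fap and Pdgfra. Dpt overlapped, at 14.8, 6.79 and 16.9 FPKM in Lipo-CGS and 14.7, 4.71 and 10.9 FPKM in Saline. Cd34 was 0.02, 0.08 and 0 FPKM in Lipo-CGS and 0.12, 0.11 and 0.15 FPKM in Saline. Mfap5 was at most 0.43 FPKM in Lipo-CGS and 0.49, 0.18 and 6.76 FPKM in Saline, and Cd248 was listed at 0 throughout. The part of fibroblasts in the rise of fibrous matrix genes was not tested.

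The receptor that CGS21680 targets was near the limit of these libraries. Adora2a, which encodes A2AR, was 0.12, 0.05 and 0.05 FPKM in Lipo-CGS and 0.06, 0.08 and 0.10 FPKM in Saline. Adora3 was listed at 0 in all 6, and Adora2b was highest in Saline 3, at 1.22 FPKM, against 0.22 to 0.55 FPKM in Lipo-CGS and 0.51 and 0.31 FPKM in Saline 1 and 2. These genes did not reach the level needed for the test. Nt5e, the surface enzyme CD73 that makes adenosine from AMP, was 70.9, 63.8 and 75.9 FPKM in Lipo-CGS and 33, 35.7 and 27.6 FPKM in Saline (log2 fold change 1.12 ± 0.17, adjusted p = 0.000955). Ada, the deaminase that degrades adenosine, was 5.09, 4.75 and 4.95 FPKM in Lipo-CGS and 7.1, 5.8 and 15.2 FPKM in Saline, and its fall (log2 fold change -0.74 ± 0.25, adjusted p = 0.037) was not called without Saline 3 (-0.35, adjusted p = 0.0538) nor without any 1 Lipo-CGS library (adjusted p = 0.0762 to 0.0895). Of 27 genes of the cyclic AMP pathway and its known responses 6 rose and 7 fell, with a median of 0.03, shares near the 17.9% and 21.6% of all genes. Sik1, a kinase induced by cyclic AMP, was 1.73, 1.9 and 1.54 FPKM in Lipo-CGS and 9.29, 6.41 and 8.46 FPKM in Saline, a fall in all libraries (log2 fold change -1.93 ± 0.20, adjusted p = 0.000259).

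**Figure D5:**
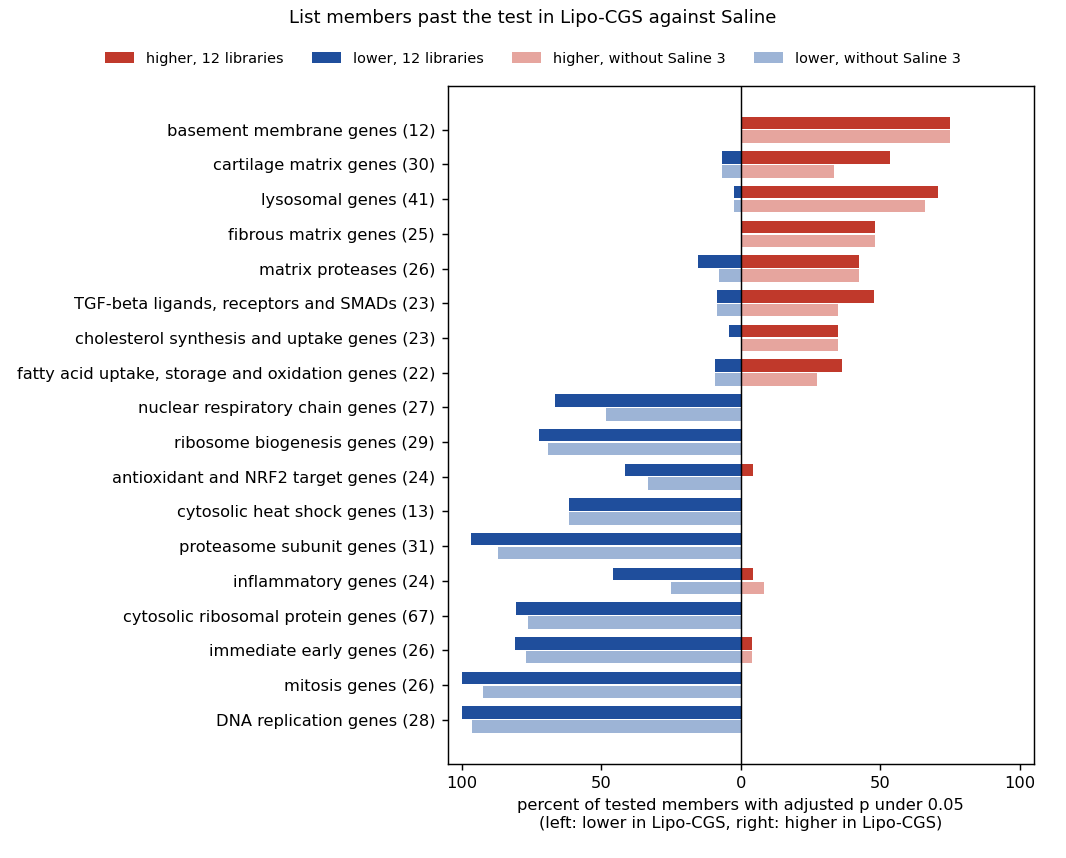
Percent of tested members of each gene list with an adjusted p under 0.05, to the left for genes lower and to the right for genes higher in Lipo-CGS, with all libraries (dark bars) and without Saline 3 (light bars), and the number of tested genes in brackets. DNA replication and mitosis genes reach 100% to the left with all libraries, and the bars of inflammatory genes (11 and 6 of 24 lower) and cartilage matrix genes (16 and 10 of 30 higher) are shorter without Saline 3.

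The contrast between the liposome groups had far fewer called genes. Lipo 1 lay 52.5 from the Lipo-CGS libraries, and Lipo 2 and 3 lay 37.5 and 36.8 from them. In the same fit 19 genes (0.167% of those tested) were called in Lipo-CGS against Lipo, and 11 of these were among the 2110 called in Lipo-CGS against Saline. By the adjusted p alone 9 genes were higher (0.0791%) and 10 lower (0.0879%) than in Lipo. Without Saline 3 in the fit, 108 genes (0.95%) were called against Lipo, 40 of them also against Saline. Lipo-CGS and Lipo are set against the same Saline libraries below, so likeness of their values is no independent support. Mitosis genes had a median log2 fold change of -1.20 in Lipo-CGS against Saline, -0.49 in Lipo against Saline and -0.72 in Lipo-CGS against Lipo, where none of 26 passed the test. Replication genes had medians of -1.27, -0.76 and -0.49 in the same order, again with none of 28 passing against Lipo. Fibrous matrix genes had medians of 0.46, 1.02 and -0.45, and basement membrane genes 0.89, 0.94 and -0.42. In each of these lists 1 gene was lower than in Lipo and none was higher. Cartilage matrix genes had medians of 0.75, 0.43 and 0.28, and lysosomal genes 0.53, 0.31 and 0.28, with none passing against Lipo. Immediate early genes had medians of -1.19, -1.31 and 0.19, and 2 of 26 were higher in Lipo-CGS than in Lipo. One was Junb, at -1.93 against Saline and 1.11 against Lipo (adjusted p = 0.0373). Fos averaged 6.26 FPKM in Lipo-CGS, 4.03 FPKM in Lipo and 95.3 FPKM in Saline, and its difference between Lipo-CGS and Lipo did not pass the test (adjusted p = 0.0808). Npnt, the basement membrane protein nephronectin, rose in Lipo-CGS against Saline (1.14) and was lower than in Lipo (-1.62, adjusted p = 0.00183). Car3, a carbonic anhydrase, showed the same order, with 31.2 FPKM in Lipo-CGS, 82 FPKM in Lipo and 11.6 FPKM in Saline (-1.36 against Lipo, adjusted p = 0.0411). Cdkn1c and Cnmd had values of 1.73 and 2.16 against Lipo and did not pass the test (adjusted p = 0.0966 and 0.0607). In the fit without Saline 3 the adjusted p was 0.0794 for Cdkn1c and 0.0339 for Cnmd, which was then called higher than in Lipo. In that fit Mmp3, which fell against Saline, was also called higher than in Lipo (0.88, adjusted p = 0.0424). Adamts14 and Npvf, which rose against Saline, were called lower than in Lipo (-0.84 and -1.02, adjusted p = 0.0271 and 0.0424). Lum was called lower than in both groups (-1.81 against Lipo, adjusted p = 0.0463). Mmp3, Adamts14, Npvf and Lum did not pass the test against Lipo with all libraries (adjusted p = 0.0613 to 0.317).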

How the data were processed

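Chondrocyte mRNA was sequenced in 12 libraries, 3 per group, each a pool of 3 animals per the labels, and libraries were treated as independent. The authors aligned the reads to the rat genome, counted reads per gene and deposited FPKM values, rounded to 2 decimals. The counter is HTSeq in the submitters' processing notes and featureCounts in the study's methods, and the step that turned counts into FPKM is not given in the sources used here. The table gives no read counts, so no counting intervals were computed.

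The table lists 28546 genes, 9582 of them at 0 throughout, and the 11373 genes that reached 1 FPKM in 3 or more libraries were tested. Log2(FPKM + 0.5) was fitted over all 12 libraries by group with limma 3.58.1 (trended eBayes, statmod 1.5.0, R 4.3.3), and refitted without Saline 3. P-values were adjusted by Benjamini-Hochberg over all genes tested. Exact permutation of 3 against 3 libraries cannot go below p = 0.1. Of the symbols, 17169 were in the RefSeq list of rat genes. Promoters came from RefSeq (GRCr8), which may differ from the authors' build, and figures were drawn with matplotlib 3.10.9 (Python 3.11.15, pandas 2.3.3).

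The gene lists and tests were chosen with earlier results of these data known. Genes were named by rule: the largest rises and falls called with or without Saline 3, the members of each list with the smallest p, genes the study names, genes in which Saline 3 lay farthest from the other Saline libraries, and the most abundant genes. Those named after their values were seen are marked in the text. Alternatives were other pseudocounts, filters, scalings, fold thresholds, weights, a replicate block and each library left out.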

Additional observations from a re-analysis of the deposited data

How the results depend on the processing

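The number of genes called in Lipo-CGS against Saline was 2110 with all libraries and 1866 without Saline 3. It was 4493 and 3387 with no fold threshold and 652 and 592 with a fold change over 2. Leaving out 1 library gave 1866 to 2225 calls, and leaving out 1 more library beside Saline 3 gave 805 to 1667, the lowest being 805 without Saline 1 and 920 without Saline 2, where 1 Saline library is left and is assumed to vary like the other groups. Under the other pseudocounts, filters, scalings and weights the count was 1636 to 2296 with and 1465 to 2094 without Saline 3. The replicate numbers showed no sign of pairing the samples. Deviations of same-numbered libraries had correlations of 0.000766, -0.16 and -0.0625, and those of differently numbered libraries -0.116 to 0.173. Such correlations cannot tell whether libraries share animals. A replicate block gave 2080 and 1419 calls. Of 2469 values of the 146 genes named, 2325 kept their direction and side of the thresholds, 117 lost the call, 24 gained it and 3 changed sign. Those that changed sign had not passed the test: Col1a1 was 0.45 without Saline 3 (-1.75 without Saline 2), and Sox9 was -0.19 without Saline 3, -0.0912 with array weights, whose estimation did not fully converge, and 0.21 without Saline 2. Of 270 list counts 15 moved by over 1.5 times. The causes were not tested. Precision is limited by 3 libraries a group and, for genes near 1 FPKM, by depth, which these files do not give.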

Other observations

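Of 14 tested acute phase and complement genes 3 rose and none fell, with a median log2 fold change of 0.95, which as a count is near the 17.9% of all genes that rose. Cp, the copper carrier ceruloplasmin, was 149, 88.1 and 156 FPKM in Lipo-CGS and 34.9, 64.6 and 53.1 FPKM in Saline (log2 fold change 1.35 ± 0.48, adjusted p = 0.0422). It did not pass the test without Lipo-CGS 1, Lipo-CGS 3, Saline 1 or Saline 3 (adjusted p = 0.0774 to 0.134). Orm1, an acid glycoprotein of plasma, was 15.9, 2.95 and 28.5 FPKM in Lipo-CGS and 1.28, 2.88 and 3.29 FPKM in Saline, with Lipo-CGS 2 close to the Saline libraries (log2 fold change 2.06 ± 0.78, adjusted p = 0.0544; 2.94, adjusted p = 0.0108, without Lipo-CGS 2, and 1.41 without Lipo-CGS 3). C3, the central complement component, was 44.9, 19.2 and 49.1 FPKM in Lipo-CGS and 4.13, 16.8 and 16.3 FPKM in Saline, also lowest of its group in Lipo-CGS 2 (log2 fold change 1.68 ± 0.79, adjusted p = 0.111; 1.05 without Saline 1). Of 14 interferon response genes 3 rose and 1 fell, the rises again near the share of all genes. Irf9, which carries the interferon signal to the nucleus, was 13, 10.8 and 12.4 FPKM in Lipo-CGS and 6.73, 7.79 and 6.83 FPKM in Saline, with no overlap between the groups (log2 fold change 0.72 ± 0.14, adjusted p = 0.00262).

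Of 17 Wnt genes 4 rose and 2 fell, against 17.9% and 21.6% of all genes. Axin2, a target of beta-catenin signalling, was 0.82, 0.87 and 0.74 FPKM in Lipo-CGS and 1.58, 1.51 and 2.03 FPKM in Saline, and the groups did not overlap (log2 fold change -0.75 ± 0.15, adjusted p = 0.00293). Fzd2, a Wnt receptor, was 42.7, 35.4 and 37.9 FPKM in Lipo-CGS and 27.7, 23.8 and 24.4 FPKM in Saline (log2 fold change 0.60 ± 0.11, adjusted p = 0.00234), but fell short of the 1.5-fold threshold without Lipo-CGS 1, Saline 2 or Saline 3 (0.53, 0.56 and 0.58). Of 13 chondrogenic transcription factors 4 rose and 1 fell, and 2 rose without Saline 3, against 12.7% of all genes. Foxo1, a factor that restrains proliferation in many cells, was 20, 16.9 and 15.8 FPKM in Lipo-CGS and 9.81, 9.68 and 7.14 FPKM in Saline (log2 fold change 0.95 ± 0.25, adjusted p = 0.013), and Nfib, of the nuclear factor I family, was 15.6, 15.7 and 12.3 FPKM in Lipo-CGS and 9.64, 7.68 and 6.81 FPKM in Saline (log2 fold change 0.82 ± 0.21, adjusted p = 0.0116). Col16a1, a minor fibril-associated collagen, was 48.2, 32.2 and 42.5 FPKM in Lipo-CGS and 17.3, 19.3 and 16.4 FPKM in Saline, over 1.5-fold apart between the nearest libraries of the groups (log2 fold change 1.17 ± 0.17, adjusted p = 0.00075).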
